A study of Mus musculus with 4 samples.

Results

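A set of 5 mouse miRNA probes, whose sequences are said to overlap ribosomal or transfer RNA, was read on 4 miRNA arrays of hippocampus. The probes are mmu-miR-2133, mmu-miR-2138, mmu-miR-2145, mmu-miR-2146 and the shared probe mmu-miR-1937a,mmu-miR-1937b, and the species prefix is left out below. They were taken by probe name and make up 5 of the 705 mouse miRNA probes on the array, or 15 of 2115 spots. All 5 belong to the 316 probes that were bright enough to be tested. The names were chosen by their brightness, their saturation and their difference between the groups on these same arrays, so these values are given as a description and carry no p-value. The overlap with ribosomal or transfer RNA was taken from the name of the group and was not checked. No sequence of the members, or of ribosomal or transfer RNA, was available here.

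The arrays compared C57BL/6J wild-type mice, an inbred laboratory strain, that had done well or badly in the Morris water maze, where a mouse learns the place of a hidden platform in a pool. Whole hippocampus was taken directly after training from good performers (2 arrays) and poor performers (2 arrays). The series text gives 4 mice per group and does not say how they were shared over the arrays, so the spread between arrays may be technical. Neither the age of the mice nor an untrained group is given in the sources used here.

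A miRNA is a short RNA, cut from a hairpin precursor, that guides an Argonaute protein to matching messenger RNAs. Ribosomal RNA builds the ribosome and transfer RNA carries amino acids to it, and both are very abundant in a cell. Pieces of them turn up in small RNA libraries, and some miRNA entries that were first registered from such libraries were later withdrawn from the miRNA registry. A probe for such an entry can also meet the parent RNA, and an array signal does not show the length of the RNA that gave it.

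None of the 6 member names was matched in the RefSeq miRNA table of GRCm38.p6. Of 12 further entries set beside the members, 3 were matched. They are shown here because they carry the numbers between those of the members, and miR-2137 returns below as the probe whose pattern was nearest to that of miR-2133. Capitals mark the seed, bases 2 to 8, which is the part of a miRNA that pairs with its targets.
mmu-miR-2136: cUGGGUGUugacugagaugug
mmu-miR-2137: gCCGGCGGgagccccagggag
mmu-miR-2139: aGCUGCGCugcuccugguaacugc
miR-2136 lies on chromosome 9 from 104426163 to 104426183 on the plus strand, miR-2137 on chromosome X from 72992113 to 72992133 on the plus strand, and miR-2139 on chromosome 4 from 139967531 to 139967554 on the minus strand. The 3 seeds differ from each other.

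On the arrays as a whole, 310 to 330 probes were detected per array, and blank spots had a mean raw intensity of 63.0 to 64.4. The median tested probe stood at 160 to 165. Markers of hippocampal cells were present: all 5 neuronal miRNAs looked up (miR-124, miR-9, miR-128, miR-138 and miR-137) were detected on all 4 arrays, and none of them passed the test between groups. Of the other cell type lists, 3 of 3 astrocyte, 2 of 2 oligodendrocyte, 4 of 4 vascular, 3 of 5 microglial and immune, 2 of 3 erythroid and 4 of 5 choroid plexus and ependymal miRNAs were detected on all 4 arrays. The oligodendrocyte miR-219 was the 1 marker past the threshold, with a log2 difference of -0.27. The raw intensity summed over the 2 oligodendrocyte markers, neither of them at 0, was 986 to 993 in good and 1051 to 1080 in poor performers, and its part in the member results was not tested.

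The members fell into 3 kinds by how they behaved. miR-2133 was dimmer than the other members, with spots at ranks 133 to 191 of 2115 by brightness, and lower in good performers on every spot. miR-2138, miR-2146 and the miR-1937a and miR-1937b probe were among the brightest probes without reaching the limit of the scanner. miR-2145 was at that limit, the highest raw intensity it can record, on most of its spots.

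miR-2133 had a raw intensity, as the mean of 3 spots, of 652 and 649 on the good-performer arrays and of 963 and 940 on the poor-performer arrays. The groups did not overlap, and neither did single spots. The brightest of 6 good-performer spots read 672 and the dimmest of 6 poor-performer spots read 925. By raw array means, 8.23% of all tested probes were likewise lower in good performers without overlap. The share on single spots was not counted. The 3 spots of an array differed from each other by a coefficient of variation of 0.708% to 3.09%. Spots of an array are technical repeats, so this spread is no measure for the difference between groups. Line by line in the file, the ratio of good to poor performers was 0.676 to 0.690 over the 3 spots. On the log2 scale after background correction and quantile normalization, the level averaged 9.29 ± 0.062 (SD, n = 2) over the good-performer arrays and 9.93 ± 0.0092 (SD, n = 2) over the poor-performer arrays. The log2 difference, good minus poor, was -0.64 ± 0.041 (SE), or 1.56-fold lower in good performers, and it was the lowest difference of all 316 tested probes. In whole tissue, fewer cells that carry an RNA and less of it per cell cannot be told apart.

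miR-2138 gave raw intensities of 13938 and 14927 in good and of 14918 and 15037 in poor performers. The second good-performer array thus read slightly above the first poor-performer array, and the groups overlapped. The spots of 1 array differed by 5.23% to 9.52%, and the third spot listed was the brightest on 4 of 4 arrays. All 3 spots had the lower mean in good performers, with ratios of 0.939 to 0.998. After quantile normalization both good-performer arrays stood at the same value, 13.81 ± 0 (SD, n = 2), against 13.97 ± 0.020 (SD, n = 2) in poor performers, and the groups no longer overlapped. The log2 difference was -0.15 ± 0.028 (SE), while the log2 ratio of the raw group means was -0.05.

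The SD of 0 comes from ranks. Quantile normalization gives each spot the mean intensity of its rank, and the spots of miR-2138 held ranks 37, 38 and 39 of 2115 by brightness on both good-performer arrays. They held ranks 34, 37 and 38 on poor performers replicate 1 and ranks 35, 36 and 39 on replicate 2. Between ranks 10 and 40 neighbouring ranks lay a median of 0.053 log2 units apart, and up to 0.23, against a median of 0.0077 between ranks 200 and 300. A move by 1 rank therefore shifts a bright spot by a visible step. The raw difference between the 2 good-performer arrays, 13938 against 14927, is not seen in the normalized value.

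miR-2146 gave raw intensities of 40750 and 43597 in good and of 41613 and 42492 in poor performers. The good-performer arrays were the lowest and the highest of the 4, with both poor-performer arrays between them. The spots of an array differed by 5.07% to 7.32%, and the first spot listed was the brightest on 4 of 4 arrays. The raw group means were 42174 ± 2013 (SD, n = 2) and 42053 ± 622 (SD, n = 2), a log2 ratio of 0.0041. After quantile normalization the log2 difference was -0.02 ± 0.030 (SE), so no difference beyond the spread of the arrays was seen.

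The shared probe of miR-1937a and miR-1937b gave raw intensities of 52058 and 52872 in good and of 47014 and 44828 in poor performers. The groups did not overlap, on arrays or on single spots: the dimmest good-performer spot read 50813 and the brightest poor-performer spot 48303. By raw array means, 37.0% of all tested probes were likewise higher in good performers without overlap. For single spots that share was not counted. The line ratios of good to poor performers were 1.14 to 1.15, and the spots of an array differed by 2.07% to 2.66%. The raw group means stood at a ratio of 1.14. After quantile normalization the levels were 15.66 ± 0.082 (SD, n = 2) for good performers, against 15.55 ± 0.028 (SD, n = 2) for poor performers. The log2 difference was 0.11 ± 0.051 (SE) there, against 0.19 without normalization, and it did not pass the test on either scale. This probe cannot tell miR-1937a from miR-1937b.

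miR-2145 was saturated on 6 of 6 good-performer spots and on 4 of 6 poor-performer spots. The 2 unsaturated spots, of poor performers replicate 1, read 63959 and 63762, close under that limit. The brightest unsaturated spot of another member read 54120. Each of the 4 array means thus includes at least 1 spot at the limit and is only a lower bound, so no fold is given. The 2 other miRNA probes with saturated spots, miR-690 and miR-709, were saturated on 12 of 12 spots.

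**Figure D1:**
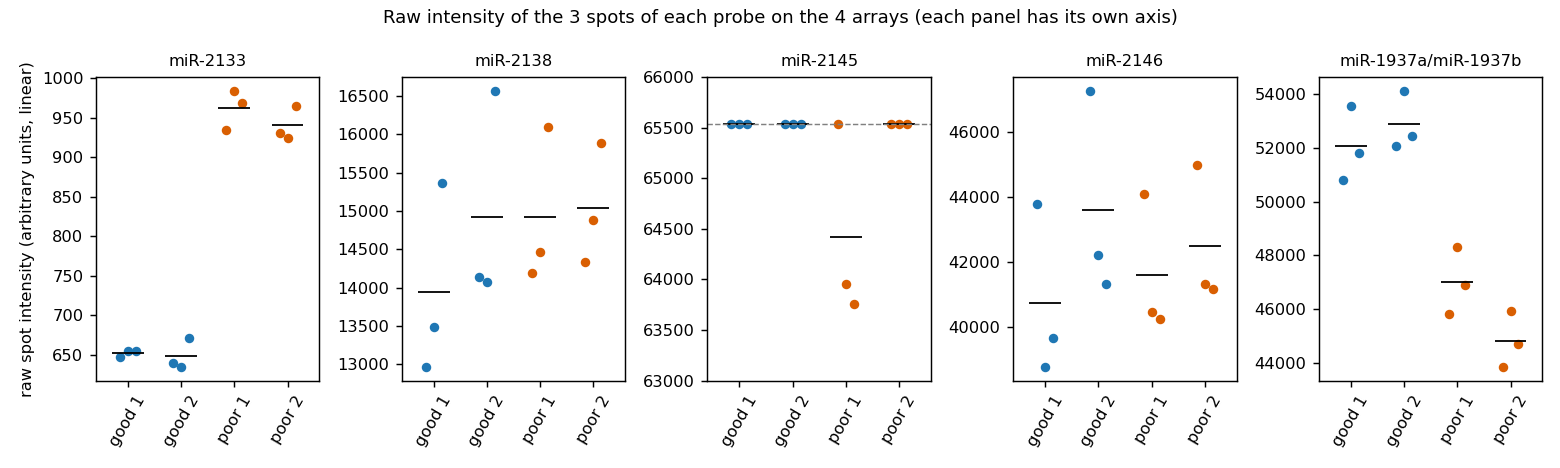
Raw spot intensity in arbitrary units on a linear axis (1 axis per panel, not starting at 0) for the 3 spots of each probe on the 4 arrays; black bars are array means and the dashed line in the miR-2145 panel is the scanner limit. The groups separate for miR-2133 and for the miR-1937a and miR-1937b probe, overlap for miR-2138 and miR-2146, and cannot be compared for miR-2145.

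Read as a list, 1 of 5 members passed the test across all probes (limma, Benjamini-Hochberg over 316 probes), and that was miR-2133. Over all tested probes 16 passed, or 5.06%, and 6 of these were lower in good performers, or 1.90%. Because the contrast was known when the members were picked, nothing is read from this count. The call of miR-2133 ended without any single array, as did all 16 calls, while its log2 difference stayed between -0.68 and -0.60.

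Arrays of the groups did not overlap for 2 of 5 members in raw intensity, where the share over all tested probes was 45.3%, and for 3 of 5 after quantile normalization, where that share was 50.6%. Raw intensities without overlap ran mostly one way: 37.0% of tested probes were higher and 8.23% lower in good performers. After quantile normalization the shares were 23.1% and 27.5%. The saturated miR-2145 has no readable difference. Over the other 4 members the median log2 difference was -0.09, against -0.01 over all tested probes. By sign, 3 of these 4 were lower and 1 higher in good performers, against 170 and 145 of all tested probes. Without normalization miR-2146 changed sign (0.0023), and with the median over spots it stood at exactly 0.

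**Figure D2:**
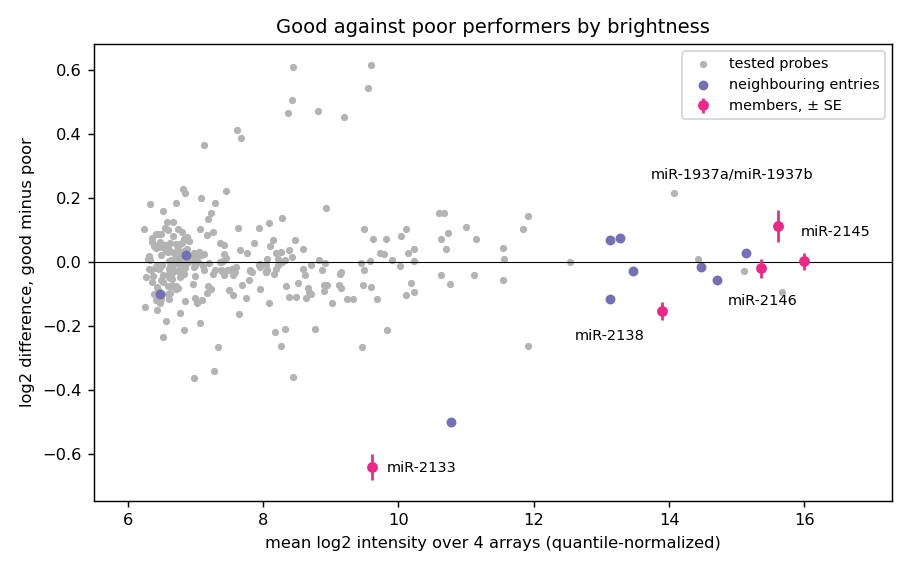
Log2 difference (good minus poor performers) against mean log2 intensity over the 4 arrays for the 316 tested probes, with the 5 members (± SE) and the 10 tested neighbouring entries in colour. miR-2133 lies lowest of all at -0.64, miR-2137 is next among the coloured points at -0.50, and the other 4 members lie at the bright end between -0.15 and 0.11, where the point of the saturated miR-2145 is not a measured difference.

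The authors' deposited table of normalized intensity gave a different picture of the bright miR-2138 and miR-2146. It listed miR-2138 at 13232 on both good-performer arrays and at 15249 and 15338 on the poor-performer arrays. It listed miR-2146 at 39233 on both good-performer arrays and at 42684 and 42701 on the others. In the raw values the good-performer arrays of these probes differed from each other, and for miR-2146 they enclosed the poor-performer arrays. For the miR-1937a and miR-1937b probe the authors' table gave a log2 ratio of 0.07, higher in good performers as in the raw values.

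The same table listed miR-2145 at 62796 on both good-performer arrays and at 67557 and 68407 on the poor-performer arrays, values that stand on either side of the scanner limit. Its log2 ratio in the authors' deposited table was -0.11. For miR-690 and miR-709, whose raw spots all stood at the scanner limit on every array, the authors' deposited table gave a log2 ratio of -0.12 as well. The difference listed for these saturated probes is thus not in the raw intensity. Among its 383 probes, 49 had an identical value on both good-performer arrays, among them 9 of the 15 probes with a mean above 10000, and none had one on both poor-performer arrays. Its 75th percentile was 321 on every array, but its highest value was 62796 on the good-performer arrays and 68380 and 68407 on the poor-performer arrays.

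When the same limma test was run on the log2 values of the authors' normalized table, 4 of 5 members passed, all lower in good performers: miR-2133, miR-2138, miR-2145 and miR-2146, with log2 differences of -0.67, -0.21, -0.11 and -0.12. That of miR-2145 rests on saturated spots and is not a measured difference. Over all tested probes 11.7% passed there, and 9.81% passed as lower. The median difference of all tested probes in that table was -0.08, and 257 of 316 probes (81.3%) had the lower mean in good performers. Once each array of that table was centred on its median, 1 of 5 members passed, against 4.75% of all tested probes. The differences were then -0.57 for miR-2133, -0.11 for miR-2138, -0.03 for miR-2146 and 0.17 for the miR-1937a and miR-1937b probe.

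**Figure D3:**
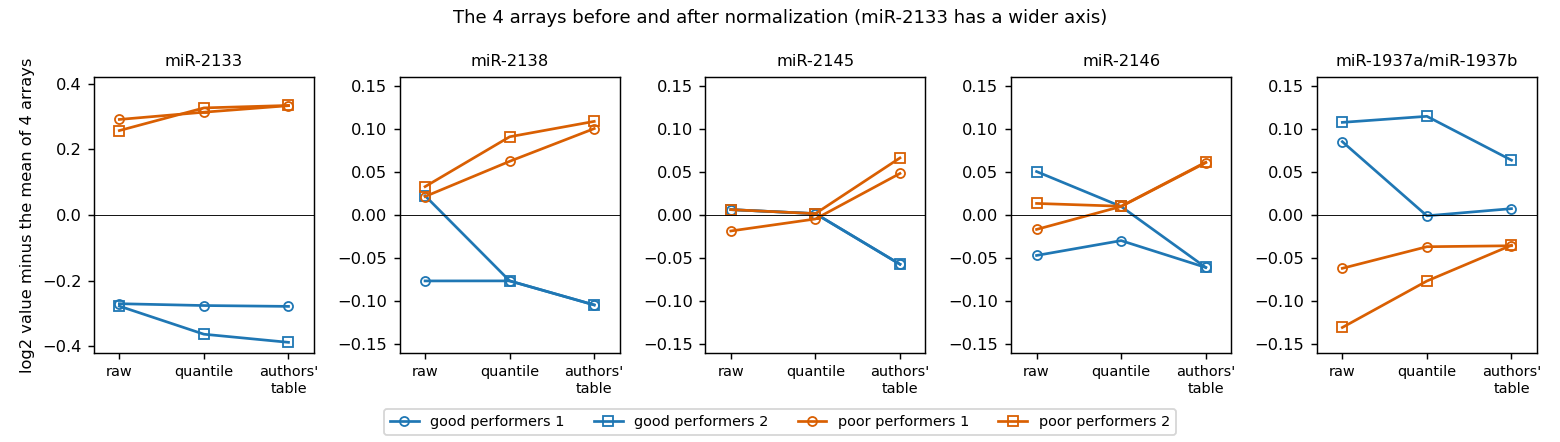
Log2 value of each array minus the mean of the 4 arrays, for each probe, in the raw data, after quantile normalization and in the authors' normalized table; blue is good and orange poor performers, circles replicate 1 and squares replicate 2. Both good-performer arrays lie below both poor-performer arrays of miR-2133 on all 3 scales, while for miR-2138, miR-2145 and miR-2146 the 2 good-performer arrays fall on 1 value in the authors' table, below both poor-performer arrays.

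Scaling moved the bright members by as much as the groups differed. The log2 difference of miR-2138 ran from -0.21 in the authors' normalized table to -0.06 without normalization, below 0 in all 13 refits with 4 arrays, and it passed in 3 of them: the authors' normalized table, offset 200 (where 6.01% of all tested probes passed) and a trended and robust variance model (9.49%). That of the miR-1937a and miR-1937b probe ran from 0.05 (spike-in scaling) to 0.19 (no normalization), above 0 in all 13, and it passed in none. miR-2146 ran from -0.14 to 0.0023. miR-2133 ran from -0.69 to -0.54 and passed in all 13, which called between 1.90% (median over spots) and 11.7% (authors' normalized table) of the tested probes. All 13 refits reuse the same 4 arrays, so their number adds no support for any member. Those that changed only the filter, the saturated spots, the variance model or the block left the miR-2133 difference at -0.64 by construction. Spike-in scaling moved the median of all tested probes to -0.11, and relative to that median the miR-2133 difference was -0.58.

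The added control RNA moved too. All 5 spike-in controls, RNA of known sequence added to each sample, had a higher unnormalized signal in good performers, by 0.05 to 0.26 log2 units. Spike-in control 1, with raw intensities of 30839 and 31874 in good and 26521 and 25787 in poor performers, differed by 0.26, more than the 0.19 of the miR-1937a and miR-1937b probe on the same scale. All 11 control probes for small nuclear or nucleolar RNA were also higher in good performers without normalization, by 0.04 to 0.52. The smallest of these, RNA U8, had raw intensities of 74.3 to 80.3, near the 63.0 to 64.4 of blank spots. U1human had 6 saturated spots, with both good-performer arrays at the scanner limit, so its 0.09 is only a lower bound. Without normalization the log2 difference of miR-2133 was -0.55, and the median over all tested probes was 0.03. What the shifts of the control probes contribute to the members was not tested.

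**Figure D4:**
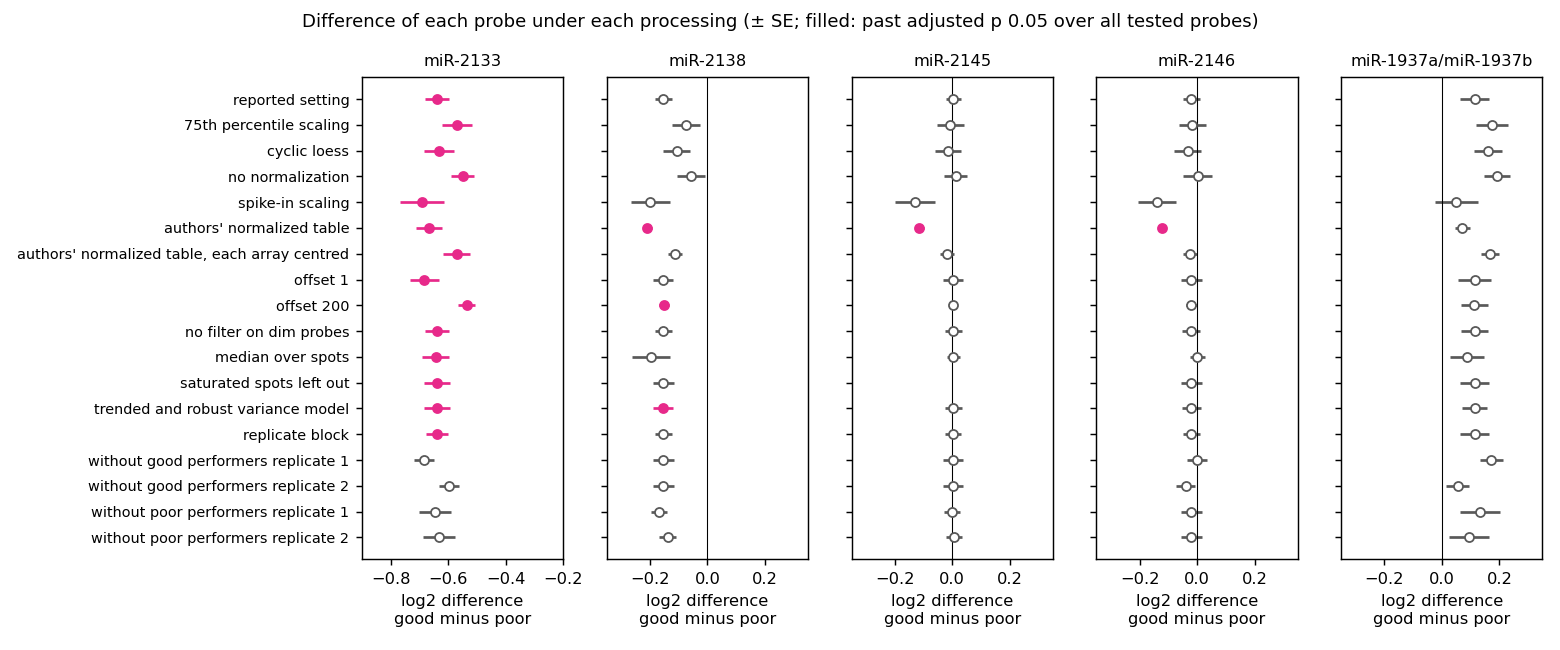
Log2 difference (good minus poor performers, ± SE) of each probe in the reported setting and in each alternative; filled points passed an adjusted p of 0.05 over all probes tested in that setting. miR-2133 is near -0.6 throughout but passes only with all 4 arrays, and miR-2146 and the saturated miR-2145 pass only in the authors' normalized table.

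The 12 neighbouring entries were those on the array with numbers between miR-2132 and miR-2146, and 4 others known from transfer or ribosomal RNA. These were miR-1937c, which shares its name with a member, miR-720, which in human cells is cut from a transfer RNA, and miR-712 and miR-712*, which come from a spacer of the mouse ribosomal RNA precursor. Of the 12, 10 were tested, and miR-2139 and miR-712* were too dim. Of the 10, 1 passed the test (miR-2137), lower in good performers, beside the 5.06% of all tested probes that passed and the 1.90% that passed as lower. Whether they passed or not, the 10 had a median log2 difference of -0.02, with 6 lower and 4 higher means. Scaling changed this split: it was 4 to 6 with 75th percentile scaling, also 4 to 6 on unnormalized values, and 9 to 1 on the spike-in scale.

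miR-2137 gave raw intensities of 1531 and 1530 in good and of 2150 and 1957 in poor performers, without overlap. Of all tested probes, 8.23% were likewise lower in good performers without overlap by raw array means. miR-2137 was lower in good performers by 0.50 on the log2 scale, with an SE of 0.050 (limma adjusted p = 0.021). The neighbours were listed with earlier results of these data known, so this p-value is a description and no independent support. The call was lost with offset 1 (adjusted p = 0.054), on the spot median (0.051) and without any 1 array (0.137 to 0.209). Over those and all other settings its difference lay between -0.57 and -0.42.

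The tested neighbours known from transfer or ribosomal RNA had log2 differences of 0.02 to 0.08 after quantile normalization. miR-720 gave raw intensities of 37156 and 36835 in good and of 32171 and 37595 in poor performers, and its log2 difference was 0.03 ± 0.037 (SE). miR-1937c gave 10427 and 10193 in good and 9700 and 9147 in poor performers, higher in good on every array in raw intensity, as the miR-1937a and miR-1937b probe was. Such a separation in raw array means, higher in good performers, was seen for 37.0% of all tested probes. The log2 difference of miR-1937c after quantile normalization was 0.08 ± 0.071 (SE), where its arrays overlapped, and it did not pass. miR-712, a dim probe at 112 to 120, had 0.02 ± 0.048 (SE).

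The bright neighbours of the number series sat close to miR-2138 in size of difference or nearer to 0. miR-2132 had a log2 difference of -0.12 ± 0.040 (SE), miR-2135 of -0.06 ± 0.031, miR-2134 of -0.03 ± 0.049 and miR-2140 of -0.02 ± 0.098. miR-2141 lay at 0.07 ± 0.040 and the dim miR-2136 at -0.10 ± 0.046. None of these 6 passed here. Of the 10 tested neighbours, 3 passed in the authors' normalized table, all lower in good performers. Over all tested probes there, 11.7% passed, 9.81% passed as lower and 81.3% had the lower mean in good performers.

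**Figure D5:**
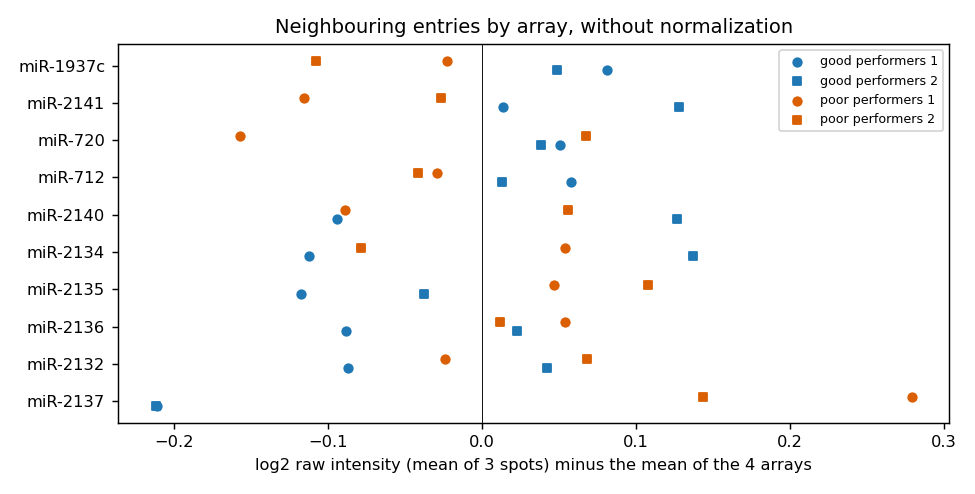
Log2 raw intensity (mean of 3 spots) of each array minus the mean of the 4 arrays for the 10 tested neighbouring entries, ordered by their normalized difference; blue is good and orange poor performers. miR-2137 shows both good-performer arrays near -0.21 and apart from both poor-performer arrays, and none of the other 9 plotted entries spreads as widely.

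The pattern over the 4 arrays was compared between probes by the root mean square distance of normalized log2 values, each probe centred on its own mean. The tested probe nearest to miR-2133 was miR-2137, at a distance of 0.082, followed by miR-1939 (0.16) and miR-700 (0.17), with log2 differences of -0.50, -0.36 and -0.36. No probe came within 0.05 of miR-2133, whose own values spanned 0.69. miR-2138 spanned 0.17 and had 36 probes within 0.05, with miR-328, miR-3474 and miR-652 nearest (0.014, 0.015 and 0.020). The miR-1937a and miR-1937b probe spanned 0.19 and had 30 such probes, with miR-1897-5p, miR-1982* and let-7b nearest (0.0078, 0.023 and 0.024). miR-2146 spanned 0.040 and had 154, with miR-666-5p, miR-330 and miR-181b nearest (0.0062, 0.0078 and 0.0082). The values were centred but not scaled, so these counts largely follow how widely a probe's own values spread. A probe with an extreme difference has few others near it, and a flat probe has many. The nearness of miR-2137 to miR-2133 thus largely restates that both had large differences in the same direction. With 4 arrays such nearness is a description.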

How the data were processed

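Cy5-labelled hippocampal RNA (2.5 µg) was hybridised to 4 single-colour miRNA arrays, per the labels' protocols. The deposited raw intensity is unnormalized spot brightness with a flag of 0 or -50 per spot, and the authors' table holds normalized intensity and a log2 ratio of good over poor performers, per the file headers. The other deposited value, the flag, was used only to mark detection. No label or header names the normalization, the array design or the scanner. The series value table repeats the authors' normalized intensity exactly.

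Raw intensity was corrected with normexp (offset 50, all spots) in limma 3.58.1 (R 4.3.3), taken to log2, quantile-normalized over miRNA spots and averaged over 3 spots. Probes with 2 of 3 spots at flag 0 on both arrays of a group were tested (lmFit and eBayes, two-sided, Benjamini-Hochberg over 316 probes, threshold 0.05). The offset makes fold changes of dim probes too small. With 2 arrays against 2, an exact permutation test cannot go below 0.333, so limma's variance model carries the test. The script was tested on simulated data. Arrays of a group differed 2.93 (good) and 2.64 (poor) times more than spot noise predicts in mean square. This sets them against spot noise alone and does not show that they held separate RNA. They were counted as 2 because the labels list them as separate samples. The number of arrays limits the precision.

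Named probes were the 5 members, entries numbered miR-2132 to miR-2146 with 4 others known from transfer or ribosomal RNA, the 3 probes nearest in pattern to each unsaturated member, control probes, other saturated probes and fixed cell type markers; miR-219 was named for passing. Members and lists were chosen with earlier results of these data known. Alternatives covered scaling, offset, filter, spot summary, saturated spots, variance model, replicate block, the authors' table and leaving out each array.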

Additional observations from a re-analysis of the deposited data

How the results depend on the processing

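The centred form of the authors' table was added after the data were seen. Probes past the threshold numbered 16 (10 higher, 6 lower), and 31 with spike-in scaling (10 higher, 21 lower), 37 in the authors' normalized table (6 higher, 31 lower), 7 with offset 1, 6 on the spot medians and 30 under a trended and robust variance model. The split was 16 higher to 6 lower with 75th percentile scaling and 12 to 3 without normalization. Members past it numbered 1, and 4 in the authors' normalized table, 2 with offset 200 and 2 with the trended and robust model. In the authors' table miR-2138 (-0.21) and miR-2146 (-0.12) gained a call. The saturated miR-2145 is listed there at -0.11 and was fitted here at 0.0031, and neither is a measured difference. miR-2138 also passed with offset 200 (-0.15) and with the trended and robust model (-0.15). The cause was not tested. Without 1 array, 0 to 0 probes and 0 to 0 members passed (limma, with 40 to 59 probes below an unadjusted p of 0.05). Such a fit has fewer degrees of freedom and borrows the spread of a lone array from the other group. The miR-2133 difference was then -0.683 to -0.596. With the replicate block 13 probes and 1 member passed. The same-numbered arrays deviated together with a correlation of 0.18, too few pairs (2) to treat the numbers as a pairing. Saturation limits miR-2145, and sparse ranks limit the other bright members.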
